A study of Mus musculus with 6 samples.

Results

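The MHC class I presentation genes described here are B2m, H2-K1, H2-D1, Tap1, Tap2, Tapbp and Nlrc5. They were chosen by name, with earlier results of these data known. All 7 were found among the 31384 genes of the deposited count table, and all 7 passed the filter on low counts. The RNA came from a mouse spermatogonial stem cell line kept for 18 days on a layer of mitomycin C-treated embryonic fibroblasts, in 3 groups of 2 libraries. LOVA cultures received 5 uM lovastatin, an inhibitor of cholesterol synthesis, in place of GDNF. NTC cultures received neither. PTC cultures received 10 ng/mL GDNF, on which self-renewal of spermatogonial stem cells depends. All groups shared EGF and FGF2 at 10 ng/mL each, 5000 U of LIF and the fibroblast layer, whose RNA the libraries also hold. The mouse strain of the line and of the fibroblasts is not given in the sources used here. Libraries carry the letter of their deposited column, A or B, and since no label says that they were separate cultures, p-values measure only the spread between these libraries.

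Class I molecules carry peptides from inside the cell to its surface, where killer T cells read them. A heavy chain, such as H2-K1 or H2-D1, folds with the light chain beta-2 microglobulin, made by B2m. The Tap1 and Tap2 proteins form the pump that moves peptides into the endoplasmic reticulum, tapasin (Tapbp) holds an empty heavy chain beside that pump, and Nlrc5 is a transcriptional activator of class I genes. Interferons raise this machinery in many cells.

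The sequences upstream of RefSeq start sites are shown because the members did not all move the same way. Entries were found for 5 members, not for Tap2 or Nlrc5. Each is the 250 bases before the first start site that RefSeq lists on build GRCm38.p6, written 5′ to 3′ on the strand of the gene. Capitals mark 4 motifs searched on both strands and chosen after the sequences were seen. These were GGGGATT, the first bases of the NF-kB element known from the H2-K1 promoter; GAAA repeated after a spacer of any 2 bases, as in interferon response elements; CCAAT, the core bound by NF-Y; and TGACG, the core of cAMP response elements. No match overlapped another. By the GENCODE coordinates given with each gene, which span all its transcripts, the H2-D1 window begins 114 bases and the Tapbp window 3329 bases inside the gene, so both lie downstream of another annotated start.
B2m: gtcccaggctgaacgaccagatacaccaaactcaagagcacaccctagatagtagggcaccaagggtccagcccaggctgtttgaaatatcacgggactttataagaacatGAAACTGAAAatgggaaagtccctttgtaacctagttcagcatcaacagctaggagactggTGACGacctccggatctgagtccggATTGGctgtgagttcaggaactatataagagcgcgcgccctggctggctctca
H2-K1: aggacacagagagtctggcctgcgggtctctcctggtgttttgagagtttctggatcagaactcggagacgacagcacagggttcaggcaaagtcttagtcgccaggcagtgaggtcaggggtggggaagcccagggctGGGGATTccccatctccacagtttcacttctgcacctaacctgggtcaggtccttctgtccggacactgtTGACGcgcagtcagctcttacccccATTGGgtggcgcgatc
H2-D1: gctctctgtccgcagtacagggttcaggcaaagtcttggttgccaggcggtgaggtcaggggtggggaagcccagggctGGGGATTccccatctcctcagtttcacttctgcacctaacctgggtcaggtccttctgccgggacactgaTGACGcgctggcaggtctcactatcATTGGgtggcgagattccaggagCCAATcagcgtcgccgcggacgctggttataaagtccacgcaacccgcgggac
Tap1: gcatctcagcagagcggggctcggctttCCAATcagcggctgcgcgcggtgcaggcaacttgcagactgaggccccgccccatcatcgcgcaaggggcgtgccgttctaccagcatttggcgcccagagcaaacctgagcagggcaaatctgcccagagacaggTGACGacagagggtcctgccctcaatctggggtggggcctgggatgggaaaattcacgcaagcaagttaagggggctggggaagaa
Tapbp: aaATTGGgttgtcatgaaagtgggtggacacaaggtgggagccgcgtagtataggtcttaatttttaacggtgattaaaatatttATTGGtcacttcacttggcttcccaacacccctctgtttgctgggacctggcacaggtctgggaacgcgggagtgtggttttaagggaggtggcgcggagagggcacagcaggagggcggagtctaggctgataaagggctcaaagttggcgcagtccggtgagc

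The windows lie at chr2:122147437-122147686 (plus strand) for B2m, chr17:34000348-34000597 (minus strand) for H2-K1, chr17:35262844-35263093 (plus strand) for H2-D1, chr17:34187306-34187555 (plus strand) for Tap1 and chr17:33919228-33919477 (plus strand) for Tapbp. GGGGATT was found in the windows of H2-K1 and H2-D1, and in 2.76% of the 32851 windows of this length in the table. The spaced GAAA repeat was found in the window of B2m and in 2.98% of all windows. TGACG was found in the windows of B2m, H2-K1, H2-D1 and Tap1, and in 17.8% of all windows. CCAAT was found in all 5 windows printed and in 33.8% of all windows, and was the only motif of the 4 in the Tapbp window. Of 190 aligned bases of the H2-K1 and H2-D1 windows, 87.4% were identical. The Tap1 window shares 225 bases with that of Psmb9, an immunoproteasome gene transcribed the other way. A match describes letters and not a bound site. Only these exact letters were searched, so a window without a match can still hold another form of the same element. This holds for the NF-kB element in B2m and for interferon response elements in H2-K1 and H2-D1. GGGGATT was taken from the H2-K1 promoter, so its match there was fixed in advance.

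Total counts per library ranged from 12454671 to 22668087, so that 3 counts came to between 0.128 and 0.258 CPM (each count relative to its TMM-scaled library size). Markers of other cell types moved with the groups, given here as shares of library counts for A and then B. The 20 fibroblast feeder markers took 1.33% and 2.51% in LOVA, 1.47% and 2.40% in NTC, and 0.112% and 0.525% in PTC. The 15 macrophage markers took 0.0468% and 0.0564% in LOVA, 0.215% and 0.270% in NTC, and 0.0329% and 0.0280% in PTC. The 17 pan-germ-cell genes took 0.350% and 0.185% in LOVA, 0.295% and 0.196% in NTC, and 0.525% and 0.547% in PTC. Despite its name, that list includes genes that mark stages of spermatogonia, such as Zbtb16 and Utf1. Zbtb16 had 134 and 125 CPM in NTC and 389 and 387 CPM in PTC. Utf1 had 7.81 and 6.38 CPM in NTC and 8.72 and 6.99 CPM in PTC. The share may therefore not track germ cell content. Every gene of these 3 lists was detected in all 6 libraries. Markers of T and NK cells took at most 0.000314% of a library, with 3 to 7 of their 8 genes at 0. The 8 Sertoli cell markers, 1 or 2 of them at 0, took 0.00809% and 0.0105% in LOVA, 0.0103% and 0.0112% in NTC, and 0.00169% and 0.00389% in PTC. The 6 dendritic cell markers, with up to 2 at 0, took 0.00186% and 0.00146% in LOVA, 0.00223% and 0.00153% in NTC, and 0.00328% and 0.00241% in PTC. The 8 endothelial markers, with up to 2 at 0, took at most 0.00221%. Sertoli shares were thus higher in LOVA and NTC than in PTC, and dendritic shares lower on average. Single genes could carry these shares. Inhbb gave 1377 of the 1855 Sertoli counts in NTC B, and Zbtb46 gave 454 of the 491 dendritic counts in PTC A. In the macrophage list, Lyz2 gave 19476 of 26807 counts in NTC A and 3158 of 4938 in PTC A. All 15 macrophage markers were positive in NTC minus PTC. In NTC minus PTC, 4 of 5 tested Sertoli genes were positive and 1 negative, and of 3 tested dendritic genes 1 was positive and 2 negative. The Sertoli and dendritic shares may therefore not track these cells, whose part in the results was not tested. In LOVA, in NTC and in PTC alike, feeder markers, B2m, Tap1 and Tap2 were all higher in library B than in library A. The other members did not follow this in every group. In PTC, H2-K1 and H2-D1 were nearly equal in A and B and Nlrc5 was lower in B, and in LOVA Tapbp was lower in B. H2-K1, H2-D1 and Nlrc5 were higher in B in LOVA and NTC, and Tapbp in NTC and PTC. Over 16121 genes, deviations from group means correlated between same-letter libraries at 0.31 to 0.48. The order may thus not be particular to the genes named here, and its source was not tested.

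**Figure D1:**
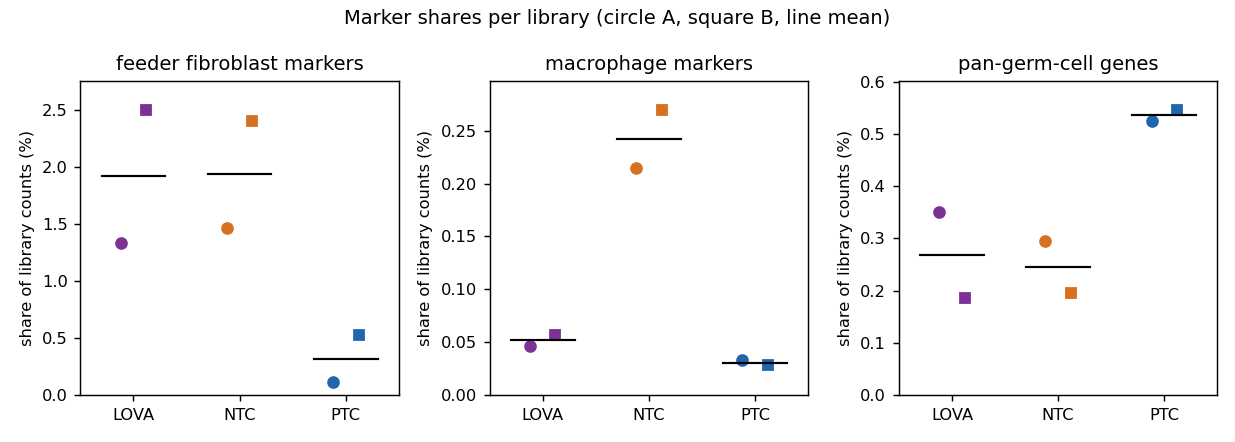
Share of library counts (%, y axis) of marker lists in LOVA, NTC and PTC, with a symbol for each library and a line at the mean of the 2. Feeder shares run from 1.33% to 2.51% in LOVA and NTC and reach at most 0.525% in PTC, while macrophage shares stand apart in NTC, at 0.215% and 0.270%.

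B2m, the light chain, had the largest change of the members. It had 309 and 549.6 CPM in LOVA, 453 and 599 CPM in NTC, and 46.7 and 76.2 CPM in PTC (library A, then B). All LOVA and NTC libraries lay above both PTC libraries, and LOVA and NTC overlapped. B2m rose 8.55-fold in NTC over PTC (log2 fold change 3.10, SE 0.37, edgeR quasi-likelihood adjusted p = 0.00859) and 6.97-fold in LOVA over PTC (log2 2.80, SE 0.37, adjusted p = 0.0167). Both comparisons share the PTC libraries. In the GENCODE M21 annotation of GRCm38, chromosome 2 holds B2m (ENSMUSG00000060802) from 122147686 to 122153083 on the plus strand.

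The classical heavy chains also rose. H2-K1 had 85.2 and 111 CPM in LOVA, 117 and 128 CPM in NTC, and 62.8 and 62.7 CPM in PTC. H2-D1 had 127 and 154 CPM in LOVA, 196 and 214 CPM in NTC, and 91.4 and 91.1 CPM in PTC. For both genes the NTC libraries lay above the LOVA libraries, and the LOVA libraries above the PTC libraries. In NTC over PTC, H2-K1 rose 1.96-fold (log2 0.97, SE 0.19, adjusted p = 0.0142) and H2-D1 2.25-fold (log2 1.17, SE 0.17, adjusted p = 0.00957). In LOVA over PTC, H2-K1 rose 1.56-fold (log2 0.64, SE 0.19, adjusted p = 0.0407) and H2-D1 1.54-fold (log2 0.62, SE 0.17, adjusted p = 0.0350). In LOVA minus PTC, neither heavy chain was called with no filter on low counts (adjusted p = 0.0551 for H2-K1 and 0.0596 for H2-D1), with only the 2 groups fitted (0.0729 and 0.0644), or when any library but LOVA A was left out (0.0689 to 0.195). Chromosome 17 holds H2-K1 (ENSMUSG00000061232) from 33996017 to 34000347 on the minus strand and H2-D1 (ENSMUSG00000073411) from 35262730 to 35267499 on the plus strand. They are close paralogs that differ between mouse strains, so the split of reads between them and their relatives is uncertain.

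Of the peptide pump, Tap1 rose and Tap2 was not called. Tap1 had 18.5 and 35.9 CPM in LOVA, 23.4 and 25.5 CPM in NTC, and 6.40 and 11.1 CPM in PTC. It rose in NTC over PTC (log2 1.48, SE 0.40, adjusted p = 0.0312) and in LOVA over PTC (log2 1.63, SE 0.40, adjusted p = 0.0279). Tap2, the other subunit, had 24.9 and 32.9 CPM in LOVA, 23.7 and 30.4 CPM in NTC, and 11.5 and 23.3 CPM in PTC. LOVA and NTC libraries lay above PTC libraries, narrowly so for NTC A and PTC B. The log2 difference of Tap2 was 0.63 in NTC minus PTC (95% interval -0.22 to 1.49, adjusted p = 0.203) and 0.73 in LOVA minus PTC (-0.13 to 1.58, adjusted p = 0.159). Without PTC A, Tap2 was at 0.22 in NTC minus PTC and 0.31 in LOVA minus PTC, and without PTC B at 1.23 and 1.32, not called. With the libraries blocked by column letter, which no label ties to shared cultures, Tap2 was called, at 0.69 (adjusted p = 0.0257) in NTC minus PTC and 0.78 (adjusted p = 0.0153) in LOVA minus PTC. Whether Tap1 and Tap2 differed in their response was not tested. Chromosome 17 holds Tap1 (ENSMUSG00000037321) from 34187553 to 34197225 on the plus strand and Tap2 (ENSMUSG00000024339) from 34203527 to 34216321 on the plus strand. Exons of Tap1 overlap Psmb9 on the other strand, which had between 8.40 and 12.4 CPM and was not called.

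Tapasin moved against the other members. Tapbp had 147 and 97.7 CPM in LOVA, 112 and 118 CPM in NTC, and 234 and 302 CPM in PTC, and both PTC libraries lay above the other 4. It fell 2.34-fold in NTC against PTC (log2 -1.22, SE 0.24, adjusted p = 0.0150) and 2.19-fold in LOVA against PTC (log2 -1.13, SE 0.24, adjusted p = 0.0219). Scaling the libraries to pan-germ-cell genes instead moved the median of all genes to 1.03 in NTC minus PTC and 1.02 in LOVA minus PTC. Those 17 genes did not move alike, with log2 fold changes from -1.85 to -0.15 in NTC minus PTC before that scaling. Whether GDNF changes them within germ cells was not tested. Tapbp was then at -0.15 (adjusted p = 0.736) in NTC minus PTC and -0.18 (adjusted p = 0.692) in LOVA minus PTC, not called. Before that scaling the 17 genes had a median log2 fold change of -1.06 in NTC minus PTC and -1.05 in LOVA minus PTC. Scaling to them raises every gene by a similar amount, and 39 and 33 genes were then called lower. A fall of that size could hardly stay called, so the scaling cannot decide whether Tapbp fell. With that scaling the log2 differences in NTC minus PTC were 4.21 for B2m, 2.04 for H2-K1, 2.24 for H2-D1 and 2.56 for Tap1, and in LOVA minus PTC 3.94, 1.72, 1.68 and 2.78 in the same order, all called. Tap2 was then at 1.74 (adjusted p = 0.0521) in NTC minus PTC and 1.82 (adjusted p = 0.0503) in LOVA minus PTC. Chromosome 17 holds Tapbp (ENSMUSG00000024308) from 33915899 to 33929292 on the plus strand. It shares exon sequence with Zbtb22 on the same strand, which had between 20.0 and 45.7 CPM and was not called. Zbtb22 moved in the same direction as Tapbp, at -0.63 in NTC minus PTC and -0.50 in LOVA minus PTC. The part of shared reads in the Tapbp values was not tested.

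Nlrc5, the activator, had the lowest mean CPM of the members in every group. It had 7.48 and 9.37 CPM in LOVA, 8.37 and 11.2 CPM in NTC, and 6.21 and 4.82 CPM in PTC, and the PTC libraries lay below the other 4. Its log2 difference was 0.83 in NTC minus PTC (95% interval 0.06 to 1.60, adjusted p = 0.0854) and 0.61 in LOVA minus PTC (-0.16 to 1.38, adjusted p = 0.179). With the scaling to pan-germ-cell genes, Nlrc5 was at 1.92 in NTC minus PTC and was called (adjusted p = 0.0386), and at 1.66 in LOVA minus PTC (adjusted p = 0.0583). Chromosome 8 holds Nlrc5 (ENSMUSG00000074151) from 94434356 to 94527272 on the plus strand.

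**Figure D2:**
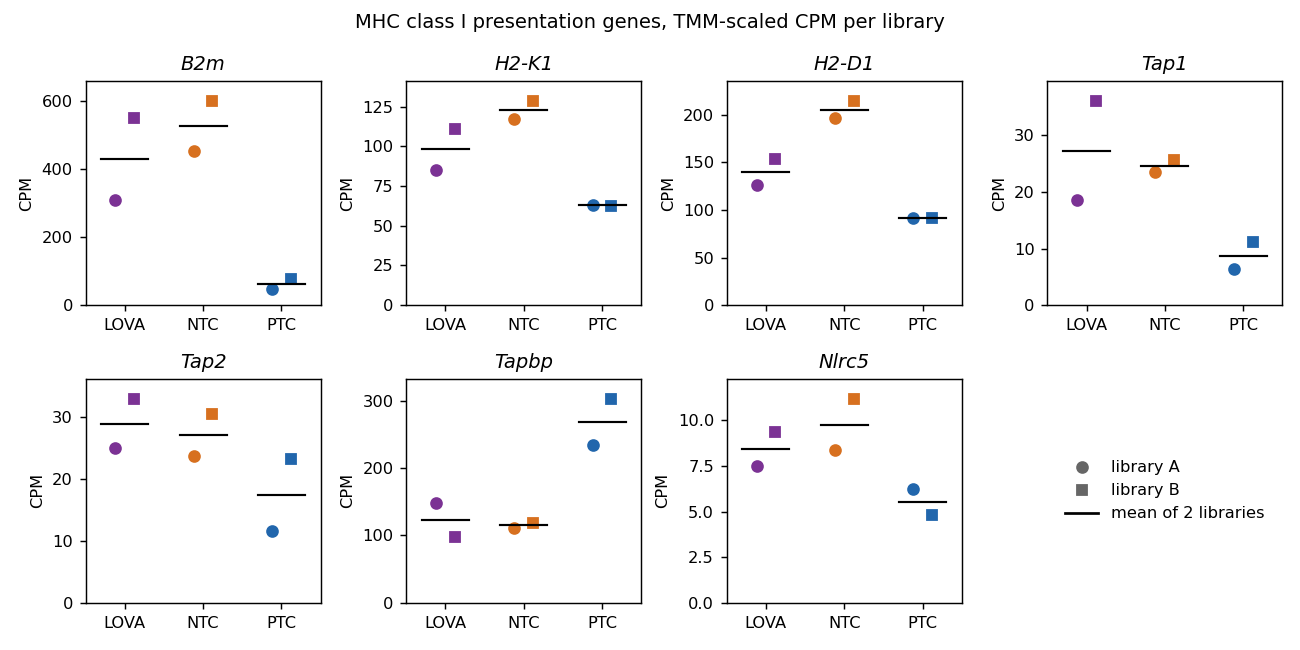
CPM (y axis, from 0) of the 7 members in the LOVA, NTC and PTC libraries, with a symbol for each library and a line at the mean of the 2. B2m lies between 309 and 599 CPM in LOVA and NTC and at 46.7 and 76.2 CPM in PTC, while Tapbp is highest in PTC, at 234 and 302 CPM.

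In all, 4 members rose and 1 fell in NTC against PTC, where 34.5% of the 16121 genes tested were called, 21.5% higher and 12.9% lower. In LOVA against PTC, 4 rose and 1 fell as well, where 30.6% of genes were called, 19.8% higher and 10.8% lower. Of all calls, 62.5% were higher in NTC minus PTC and 64.6% in LOVA minus PTC, and 99.3% and 99.3% with the pan-germ-cell scaling. The median log2 fold change of the members was 0.97 in NTC minus PTC, beside -0.02 over all genes, and 0.64 in LOVA minus PTC, beside 0.00. The 7 members had no overlap between groups in either comparison, 6 of them higher. Of all genes, 39% were higher and 38.5% lower without overlap in NTC against PTC, and 38.4% and 37.9% in LOVA against PTC.

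The calls depended on single libraries. In NTC minus PTC, 0 members were called without NTC B, when 1 gene was called in the whole table, and B2m was at 2.88 (adjusted p = 0.060). In NTC minus PTC, 3 were called without NTC A, where 16.5% of all genes were, 3 without PTC A, where 8.42% were, and 3 without PTC B, where 16.5% were. B2m and H2-D1 were among them each time, while H2-K1 was not called without PTC A or PTC B, Tap1 without NTC A or PTC A, and Tapbp without NTC A or PTC B. In LOVA minus PTC, 1 was called without LOVA B, where 4.6% of all genes were, 1 without PTC A, where 4.52% were, and 2 without PTC B, where 13.9% were. Without NTC A or without NTC B, which are not in that comparison but share its estimate of spread, 3 were called, beside 18.4% and 17.6% of all genes. B2m was called in LOVA minus PTC without each library in turn, Tap1 was not without LOVA B (log2 1.07) or PTC A, and Tapbp was not without LOVA B, PTC A or PTC B. The signs of the 7 members in these 2 comparisons stayed the same without any 1 library.

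Feeder content moved with both comparisons. The feeder markers had a median log2 fold change of 2.93 in NTC minus PTC and 2.78 in LOVA minus PTC, with 13 of 20 called in each. With the feeder share as a covariate, 0 members were called in either comparison, and 42 genes in the whole table in NTC minus PTC and 13 in LOVA minus PTC. Feeder shares were at most 0.525% in PTC and at least 1.33% elsewhere, so this covariate can hardly be separated from the contrast with PTC. The loss of calls therefore cannot show how much of a change goes with feeder content. The log2 difference of B2m in NTC minus PTC was then 1.89 (adjusted p = 0.134), that of H2-K1 0.76, that of H2-D1 1.01 and that of Tap1 0.25. Tap2 stood at -0.63, Tapbp at -1.38 and Nlrc5 at 0.94 in the same fit. In bulk RNA, fewer cells of a type and less RNA per cell cannot be told apart. Of the 15 macrophage markers, 15 rose in NTC over PTC and 2 in LOVA over PTC; their part in the results was not tested.

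LOVA against NTC shows what differed with lovastatin in medium without GDNF. No member was called by edgeR, DESeq2 or limma-voom, and edgeR called 0% of the genes tested, with 561 genes at an unadjusted p under 0.05. Among the members 1 had such a p, H2-D1, at a log2 difference of -0.55 (95% interval -0.95 to -0.15, edgeR adjusted p = 1.00). Its 127 and 154 CPM in LOVA stood against 196 and 214 CPM in NTC. H2-K1 was at -0.32 (-0.76 to 0.11). Both heavy chains had both LOVA libraries below both NTC libraries, as did 13% of all genes, and the other 5 members overlapped. The 95% interval was -1.10 to 0.52 for B2m, -0.77 to 1.07 for Tap1, -0.76 to 0.94 for Tap2, -0.47 to 0.66 for Tapbp and -0.98 to 0.55 for Nlrc5. Feeder shares were 1.92% ± 0.829 in LOVA and 1.94% ± 0.660 in NTC, and macrophage shares 0.0516% ± 0.00678 in LOVA and 0.243% ± 0.0388 in NTC (SD, n = 2 each). The part of macrophages in the heavy chain values was not tested.

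**Figure D3:**
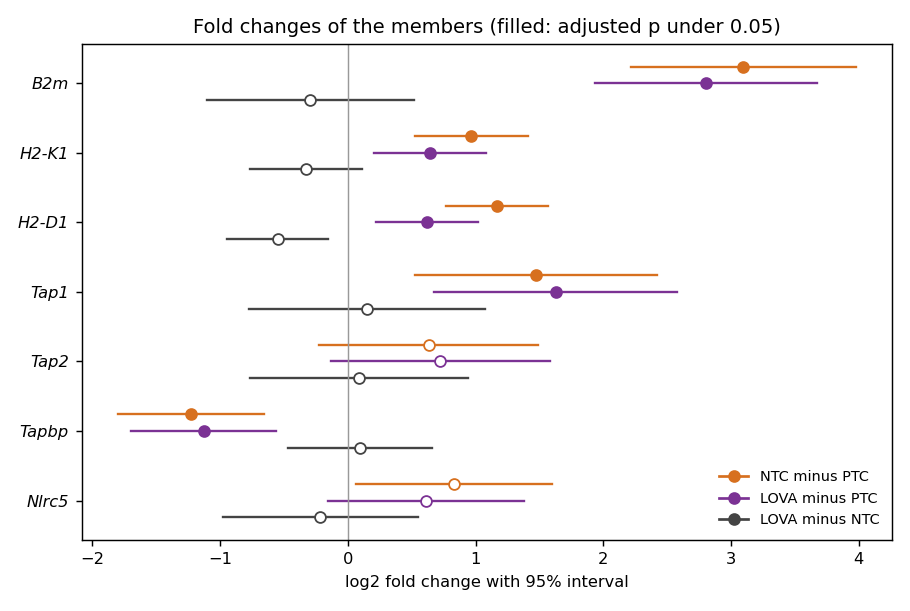
Log2 fold changes (x axis) of the 7 members with 95% intervals in the 3 contrasts, with filled points for an adjusted p under 0.05. B2m stands at 3.10 in NTC minus PTC and 2.80 in LOVA minus PTC, Tapbp at -1.22 and -1.13, and every point of LOVA minus NTC is open.

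Levels of different genes were compared per length, as RPKM (CPM per kilobase of exon). B2m over the sum of H2-K1 and H2-D1 was 4.60 and 6.57 in LOVA, 4.55 and 5.51 in NTC, and 0.957 and 1.56 in PTC (library A, then B). The summed heavy chains were at 87.7 ± 13.6 RPKM in LOVA, 121 ± 7.50 RPKM in NTC and 56.7 ± 0.0891 RPKM in PTC (SD, n = 2 each). The ratio was thus nearest to 1 in PTC. Lengths cover every annotated exon (860 bases for B2m, 2938 for H2-K1 and 2579 for H2-D1), and the size of each ratio depends on them. The sum also leaves out the non-classical heavy chains. Tapbp over the mean of Tap1 and Tap2 was 8.15 and 3.53 in LOVA, 5.82 and 5.12 in NTC, and 30.6 and 20.3 in PTC. In both ratios the LOVA and NTC libraries lay apart from PTC, below it for Tapbp and above it for B2m. Tap1 over Tap2 was 0.513 and 0.756 in LOVA, 0.681 and 0.579 in NTC, and 0.383 and 0.330 in PTC. H2-K1 over H2-D1 was 0.591 and 0.634 in LOVA, 0.524 and 0.527 in NTC, and 0.603 and 0.605 in PTC, lowest in NTC. These ratios are given without a test.

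The order of the members by RPKM differed between groups. In LOVA, B2m (499 ± 198) was followed by H2-D1 (54.3 ± 7.41), then by Tapbp (33.8 ± 9.70) and H2-K1 (33.4 ± 6.16), which lay within their spread of each other, as did Tap2 (7.64 ± 1.48) and Tap1 (4.97 ± 2.25); Nlrc5 was last (0.992 ± 0.158). In NTC the order was B2m (612 ± 120.0), H2-D1 (79.5 ± 4.82), H2-K1 (41.8 ± 2.68), Tapbp (31.7 ± 1.28), Tap2 (7.16 ± 1.25), Tap1 (4.47 ± 0.273) and Nlrc5 (1.15 ± 0.232). In PTC, Tapbp (73.9 ± 13.2) and B2m (71.5 ± 24.2) lay within their spread of each other, ahead of H2-D1 (35.4 ± 0.0799), H2-K1 (21.4 ± 0.00902), Tap2 (4.60 ± 2.19), Tap1 (1.60 ± 0.610) and Nlrc5 (0.649 ± 0.116). Each value is a mean RPKM ± SD with n = 2.

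**Figure D4:**
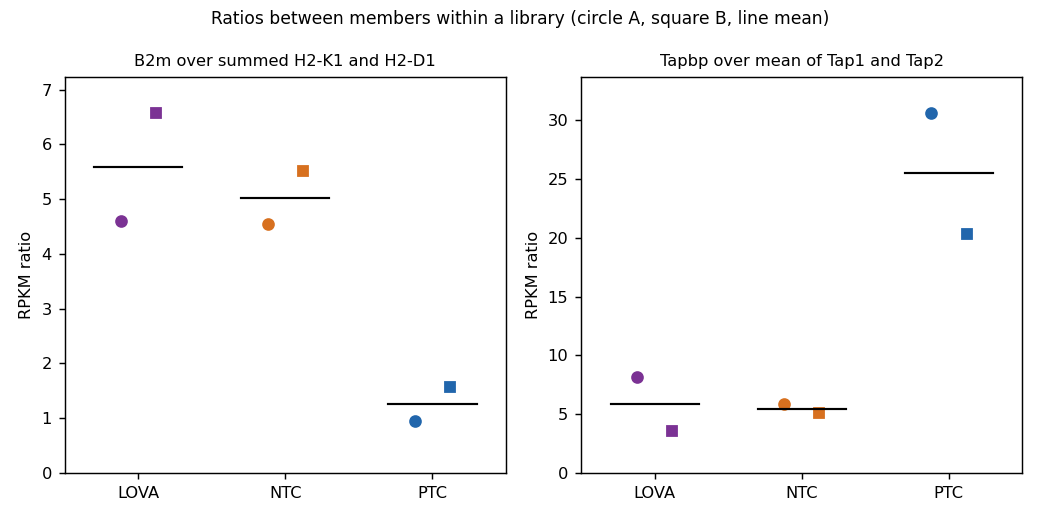
Ratios of RPKM values within each LOVA, NTC and PTC library (y axis, from 0), with a symbol for each library and a line at the mean of the 2. B2m over the summed heavy chains is 4.55 or more in LOVA and NTC and at most 1.56 in PTC, and Tapbp over the mean of Tap1 and Tap2 is highest in PTC, at 30.6 and 20.3.

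Related genes were followed in 9 lists with 88 tested genes. Over all lists, 30 higher and 11 lower were called in NTC minus PTC, which is 34.1% and 12.5% of them, beside 21.5% and 12.9% of all genes. In LOVA minus PTC, 24 higher and 13 lower were called, 27.3% and 14.8%, beside 19.8% and 10.8% of all genes. Without NTC B the counts in NTC minus PTC were 0 higher and 0 lower, without PTC A 5 higher and 2 lower, without PTC B 15 higher and 3 lower and without NTC A 18 higher and 5 lower. In LOVA minus PTC the counts were 1 higher and 2 lower without LOVA B, 3 higher and 2 lower without PTC A, 11 higher and 1 lower without PTC B, 16 higher and 7 lower without NTC A and 15 higher and 6 lower without NTC B. The calls over all genes fell in the same fits, to the shares given for the members above. With the feeder share as a covariate the list counts were 0 higher and 1 lower in NTC minus PTC and 0 higher and 0 lower in LOVA minus PTC. With the pan-germ-cell scaling they were 38 higher and 0 lower in NTC minus PTC and 37 higher and 0 lower in LOVA minus PTC, beside 33.3% and 29.9% of all genes called, nearly all of them higher. Because that scaling raises all genes by a similar amount, a call lost under it below cannot decide whether that gene fell. All calls below have an edgeR adjusted p under 0.05 in the fit of all 6 libraries, and each list's counts stand against the shares of all genes called higher and lower just given.

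Of the non-classical heavy chains, 11 were tested, and 3 (27.3%) rose in NTC over PTC and in LOVA over PTC, near the shares of all genes called higher, with medians of 0.45 and 0.40. All 3 were H2-T genes. H2-T24 rose by a log2 of 3.32, SE 0.59, in NTC over PTC and 3.24, SE 0.59, in LOVA over PTC. H2-T23, which makes the Qa-1 molecule read by NK cells, had 32.0 and 56.4 CPM in LOVA, 56.0 and 50.3 CPM in NTC, and 14.0 and 17.8 CPM in PTC. It rose by 1.74, SE 0.30, in NTC over PTC and 1.47, SE 0.30, in LOVA over PTC, and H2-T22 by 1.28, SE 0.27, and 1.33, SE 0.27, in the same order. No H2-Q or H2-M gene was called; H2-Q7 was at -0.20, H2-Q4 at 0.45 and H2-M3, which presents formylated peptides, at -0.14 in NTC minus PTC. Reads of these close paralogs may be split between them.

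Class I-like proteins share the fold of class I heavy chains. Of 8 tested, 7 rose in NTC over PTC and 4 in LOVA over PTC, with medians of 1.81 and 1.58. Fcgrt, the receptor that recycles antibodies and pairs with the B2m light chain, had 48.9 and 75.8 CPM in LOVA, 71.1 and 84.7 CPM in NTC, and 5.20 and 11.7 CPM in PTC. It rose by a log2 of 3.19, SE 0.42, in NTC over PTC and 2.87, SE 0.41, in LOVA over PTC. Mr1, which shows vitamin B metabolites to T cells, rose by 3.11, SE 0.66, in NTC over PTC and 2.97, SE 0.66, in LOVA over PTC. Raet1d, a ligand of the NK receptor NKG2D with a close paralog in Raet1e, rose by 2.08, SE 0.35, in NTC over PTC, and Procr, the protein C receptor, by 1.60, SE 0.41, in LOVA over PTC.

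The immunoproteasome, which cuts proteins into peptides suited to class I, did not move one way. Its catalytic subunit Psmb8 had 10.6 and 20.0 CPM in LOVA, 14.3 and 17.3 CPM in NTC, and 7.09 and 7.03 CPM in PTC, and rose in NTC over PTC (log2 1.16, SE 0.35, adjusted p = 0.0427) while LOVA minus PTC was not called (1.11, adjusted p = 0.0518). Its catalytic subunit Psmb10 had 55.0 and 38.4 CPM in LOVA, 60.1 and 44.1 CPM in NTC, and 97.6 and 129 CPM in PTC. Psmb10 fell in NTC against PTC (log2 -1.12, SE 0.27) and in LOVA against PTC (-1.28, SE 0.27), but was at -0.09 and -0.32, not called, with the pan-germ-cell scaling. The activator subunit Psme2 fell in LOVA against PTC (-0.92, SE 0.27) and was at 0.01 with that scaling. Psmb9 was at -0.16 and Psme1 at -0.68 in NTC minus PTC, not called. Of 5 genes of the standard proteasome, Psme3, a subunit of another activator, was called, at -0.70, SE 0.19, in NTC minus PTC and -0.71, SE 0.19, in LOVA minus PTC; with the pan-germ-cell scaling it turned to 0.36 and 0.26, not called.

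Of 9 genes for peptide loading and trimming, 6 rose and 2 fell in NTC against PTC, and 5 rose and 2 fell in LOVA against PTC. Lnpep, an aminopeptidase, rose by a log2 of 1.17, SE 0.36, in NTC over PTC and 1.48, SE 0.36, in LOVA over PTC. Canx, a chaperone of new heavy chains, rose by 1.03, SE 0.29, in NTC over PTC and 1.23, SE 0.29, in LOVA over PTC. Pdia6, a disulfide isomerase, rose by 0.96, SE 0.15, in NTC over PTC and 0.78, SE 0.15, in LOVA over PTC. Erap1, which trims peptides to class I length, and Sec61a1, of the protein channel into the endoplasmic reticulum, fell, at -0.85, SE 0.19, and -0.51, SE 0.15, in NTC minus PTC. With the pan-germ-cell scaling they turned to 0.21 for Erap1 and 0.55 for Sec61a1, not called.

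Upstream of class I, none of the 7 interferon genes of the list had a count in any library, which allows up to 0.258 CPM in the library with the highest floor. Of 12 genes of interferon receptors, JAK and STAT, 5 rose and 1 fell in NTC against PTC, and 6 rose and 1 fell in LOVA against PTC. The receptor chain Ifnar2 rose by a log2 of 1.62, SE 0.30, in NTC over PTC and 1.48, SE 0.30, in LOVA over PTC. The receptor chain Ifngr1 rose by 1.61, SE 0.31, and 1.43, SE 0.31, and the factor Irf2 by 1.26, SE 0.40, and 1.45, SE 0.41, in the same order. Irf1, an activator of class I genes, had 194 and 143 CPM in LOVA, 188 and 168 CPM in NTC, and 326 and 349 CPM in PTC. It fell in NTC against PTC (-0.92, SE 0.19) and in LOVA against PTC (adjusted p = 0.0186), but was at 0.13 and -0.04, not called, with the pan-germ-cell scaling.

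Among 16 factors of class I promoters, the NF-kB subunits Nfkb1 and Nfkb2 rose and the Polycomb subunit Eed fell, in both comparisons against PTC. Nfkb1 had 29.1 and 68.8 CPM in LOVA, 34.8 and 56.5 CPM in NTC, and 9.59 and 14.7 CPM in PTC. Its log2 fold change was 1.90, SE 0.46, in NTC minus PTC and 2.00, SE 0.47, in LOVA minus PTC, and that of Nfkb2 0.91, SE 0.23, and 1.02, SE 0.23. Eed was at -0.97, SE 0.18, in NTC minus PTC and -0.84, SE 0.18, in LOVA minus PTC, and turned to 0.08 and 0.14, not called, with the pan-germ-cell scaling. Rela and Relb, NF-kB subunits with a transactivation domain, were not called; Rela was at 0.06 in NTC minus PTC and 0.09 in LOVA minus PTC, and Relb at 0.38 and 0.24. The RFX and NF-Y subunits, which work with Nlrc5 at class I promoters, were not called, and ran from -0.54 for Rfx5 to -0.25 for Rfxank in NTC minus PTC.

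Interferon-stimulated antiviral genes went both ways. Of 16, 6 rose and 4 fell in NTC against PTC, and 4 rose and 5 fell in LOVA against PTC. Ifit3, an antiviral RNA-binding family member, had 15.2 and 53.3 CPM in LOVA, 28.0 and 34.8 CPM in NTC, and 0.690 and 3.92 CPM in PTC. It rose by a log2 of 3.71, SE 0.87, in NTC over PTC and 3.83, SE 0.88, in LOVA over PTC. Ifitm3, which blocks viral entry, rose by 3.46, SE 0.61, and 3.35, SE 0.61, and Ifit1 by 3.42, SE 0.88, and 4.07, SE 0.89, in the same order. Gbp2, a guanylate-binding protein, had 43.2 and 46.4 CPM in LOVA, 30.3 and 32.6 CPM in NTC, and 79.0 and 114 CPM in PTC. It fell in NTC against PTC (-1.62, SE 0.22) and in LOVA against PTC (-1.11, SE 0.22), and with the pan-germ-cell scaling was at -0.54 and -0.06, not called.

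Class II presentation, by which macrophages and dendritic cells show outside antigen, was mostly near the floor. Of 10 genes, 6 were tested, and Cd74, the invariant chain, was called. Among the 6, 4 were positive and 2 negative in NTC minus PTC, with a median of 0.44. In LOVA minus PTC 2 were positive and 4 negative, with a median of -0.13. H2-DMa had 8.69 and 9.03 CPM in LOVA, 7.01 and 8.51 CPM in NTC, and 6.02 and 5.54 CPM in PTC, and was not called. Cd74 had 0.712 and 0.258 CPM in LOVA, 1.12 and 0.709 CPM in NTC, and 4.33 and 2.60 CPM in PTC. It fell in NTC against PTC (log2 -1.92, SE 0.62, adjusted p = 0.0499) and in LOVA against PTC (-2.78, SE 0.66, adjusted p = 0.0263), and was at -0.92 and -1.95, not called, with the pan-germ-cell scaling. The class II chains H2-Aa, H2-Ab1 and H2-Eb1 reached at most 1.27 CPM in any library. In LOVA minus NTC no gene of the 9 lists was called by edgeR, DESeq2 or limma-voom, and the list medians ran from -0.65 for class II to 0.06 for peptide loading and trimming.

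**Figure D5:**
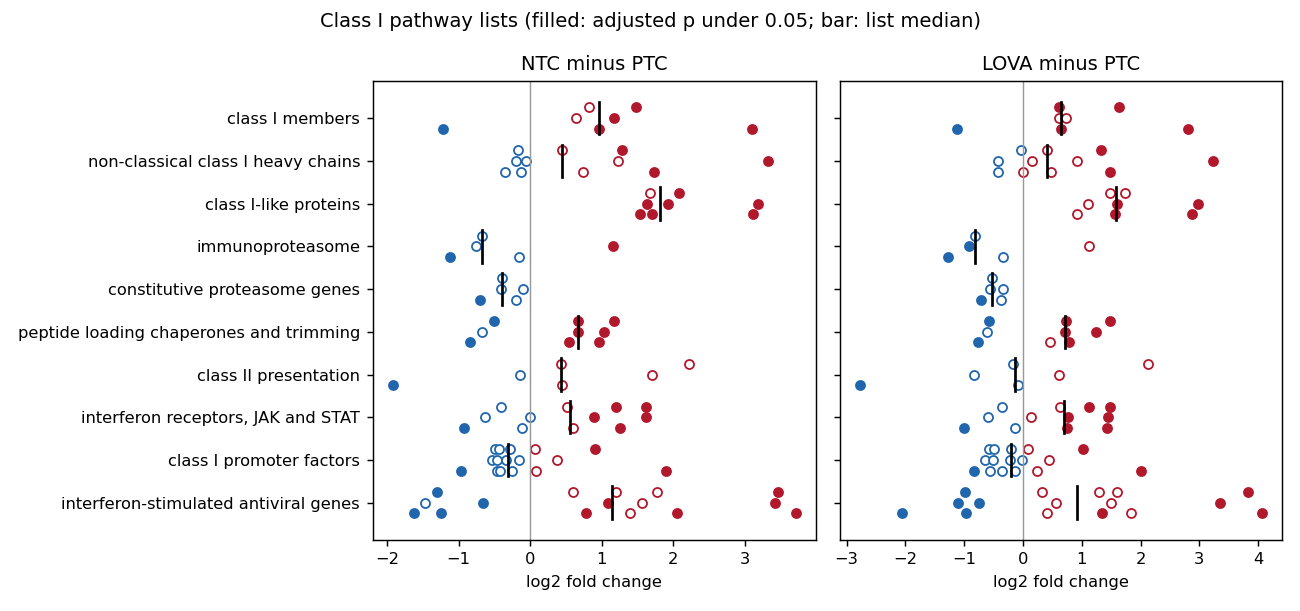
Log2 fold changes (x axis) of the tested genes in lists related to class I presentation, in NTC minus PTC and LOVA minus PTC, with filled points for an adjusted p under 0.05. Class I-like proteins all lie above 0, with medians of 1.81 and 1.58, and the immunoproteasome has values on both sides of 0.

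Likeness of pattern was the root mean square difference in centred log2 CPM over the 6 libraries, among 11305 genes. Closest to the mean profile of the members were Hes1 (0.0391), a Notch target, Mcl1 (0.0411), a survival protein of the BCL2 family, Tor1b (0.0446), Rab2a (0.0515), Slc39a1 (0.0522), Slc40a1 (0.0523), Ap3s1 (0.0546) and Ubl3 (0.0581). The members themselves lay at 0.136 for H2-K1, 0.192 for H2-D1, 0.228 for Tap2, 0.234 for Nlrc5, 0.366 for Tap1, 0.978 for B2m and 1.03 for Tapbp. Closest to B2m alone were Plau (0.0552), a protease that activates plasminogen, Mpp1 (0.0777) and Lrrc32 (0.0869). Closest to Tapbp alone were Adcy10 (0.0757), Igfbpl1 (0.0860) and Rab3ip (0.0917). These values come from the same libraries, which differ in the shares of feeder markers and pan-germ-cell genes.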

How the data were processed

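RNA of 6 libraries, 2 each of LOVA, NTC and PTC, was analysed from raw counts per Ensembl gene, which the authors deposited without normalization. The submitters' processing notes name Trimmomatic, Bowtie2, RSEM, DESeq2 and the build mm10, without roles; if RSEM made the counts, they were rounded before deposit. The kit kept strand, per the labels' protocols, but whether counting used it is not given in the sources used here. Symbols (31363 of 31384 genes) came from a separate list of gene names, and exon lengths from GENCODE M21. Counts were filtered with filterByExpr, scaled by TMM and fitted in edgeR 4.0.16 with 1 coefficient per group (robust quasi-likelihood, legacy form, 3 residual degrees of freedom, coefficient of variation 0.260; R 4.3.3). Calls used a Benjamini-Hochberg threshold of 0.05 over the 16121 genes tested. Standard errors and 95% intervals came from that fit; floors of 3 counts cover counting error only. The fit was also run on simulated counts, drawn independently with 200 changed genes. That setting is unlike these data, so no conclusion is drawn from it. All 7 members were named, with up to 3 called genes of largest change per list and comparison and the 8 genes nearest to the mean profile (mean CPM of at least 5, offset 0.5); other genes were named after their values were seen. Members, lists and motifs were chosen with earlier results of these data known. Alternatives used DESeq2 1.42.0 (size factors, Wald test), limma-voom (limma 3.58.1), no filter, pan-germ-cell scaling, a feeder covariate, a block by column letter, only the groups compared, and each library left out.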

Additional observations from a re-analysis of the deposited data

How the results depend on the processing

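With 2 libraries a group, single libraries decided many calls. Leaving out 1 library gave 0 to 5 members called in NTC minus PTC and 1 to 5 in LOVA minus PTC, against 5 in each with all libraries. All genes called then ran from 1 to 6726 in NTC minus PTC, 0 to 2 in LOVA minus NTC and 758 to 6754 in LOVA minus PTC, against 5558, 0 and 4939 with all libraries. A group left with 1 library is assumed to vary like the others. In LOVA minus NTC, where no member was called, log2 differences then ran from -0.77 to 0.060 for B2m, -0.40 to 0.55 for Tap1, -0.12 to 0.28 for Tap2, -0.24 to 0.36 for Tapbp and -0.44 to 0.00740 for Nlrc5, and Tapbp was at -0.032 with the pan-germ-cell scaling. With the feeder share as a covariate, 0 members were called in NTC minus PTC and 0 in LOVA minus PTC, and 42, 72 and 13 genes over the whole table in the contrasts as ordered above. Tap2 turned to -0.63 in NTC minus PTC and -0.52 in LOVA minus PTC. Against PTC, that fit can hardly separate feeder share from group. LOVA minus NTC had 191 calls with no filter, 120 by DESeq2 and 4 by limma-voom. LOVA minus PTC had 3 members called with no filter, and 3 members and 3215 genes with only the 2 groups fitted. The causes were not tested. The counts over related lists under each setting were added after seeing the data.

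Labels number the libraries and columns letter them, so the replicate block by column letter rests on a shared letter only. Deviations from group means correlated between same-letter libraries at 0.48 (LOVA and NTC), 0.35 (LOVA and PTC) and 0.31 (NTC and PTC) across 16121 genes, which are not independent. With the block, 6 members were called in NTC minus PTC, 0 in LOVA minus NTC and 6 in LOVA minus PTC, and 8053, 90 and 7746 genes in the same order; Tap2 was the member gained.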
